A study of Mus musculus with 18 samples.

Results

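The solute carrier (Slc) genes encode the membrane proteins that move amino acids, sugars, ions, metals, nucleotides and mitochondrial metabolites across cell membranes. They were followed in primary murine renal proximal tubulo-interstitial epithelial cells (RPTEC) treated with TWEAK and with the NIK inhibitor NIK SMI1. A gene was taken if its current mouse symbol began with Slc and a number and if more than 10 reads were counted in at least 4 of the 18 samples. Of 382 Slc genes listed, 240 were chosen in this way, among 15521 genes of all kinds that passed the same filter. Slc30a8 was left out because its reads came with those of insulin genes. The members comprised 233 transporter genes and 7 genes that carry an Slc symbol without being transporters themselves, such as the scaffolds Slc9a3r1 and Slc9a3r2 and the antisense gene Slc13a2os. These 7 are counted below in the class of the transporter they are named after. Classes follow the number of the family alone, so a member may carry another substrate than its class is named for. Among the Slc symbols the members were selected on their read counts alone, so that being detected is no finding about them. The Slc genes as a group were chosen with earlier results of these data known.

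The proximal tubule reclaims most of what the glomerulus filters, and it does so largely with Slc proteins. Sodium-coupled carriers of the apical membrane take up glucose, amino acids, phosphate and citrate, while basolateral carriers release them to the blood and return bicarbonate. TWEAK, a cytokine of the TNF family, binds the receptor Fn14 and activates canonical NF-κB signaling and, through the kinase NIK, the non-canonical branch. The study asked how much of the response of these cells to TWEAK depends on NIK.

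The cells were C57BL/6 kidney cells from a commercial source and were kept in epithelial medium. They received vehicle (DMSO), TWEAK at 100 ng/mL, or TWEAK at the same dose with 3 µM NIK SMI1, for 6 h or 24 h. Each of these 6 groups had 3 samples. No group received NIK SMI1 without TWEAK, so an effect of the compound on unstimulated cells cannot be told apart from an effect on the TWEAK response. The labels do not say whether the samples came from separate animals or cell preparations. All p-values therefore measure the spread between cultured samples, which may be technical. The labels number no replicates, and the numbers 1 to 3 used here follow the order of deposition within a group, only tell its samples apart and pair nothing.

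RNA was sequenced to between 18040966 and 51956444 counted reads per sample (median 35374254). At these depths 3 reads correspond to 0.05774 to 0.1663 CPM, the unit of counts scaled to library size used for levels here. Reads of the insulin genes Ins1 and Ins2 were present in 14 libraries at 2.29 to 16.9 CPM and absent from 4, namely replicate 2 of TWEAK at 24 h and all 3 samples of TWEAK with NIK SMI1 at 24 h. Among the members only Slc38a5, an amino acid carrier, followed this split, with at most 1 read in the 4 libraries and 5 to 77 reads in the others. It is counted among the members, and with the amino acid class, but is named in no comparison. Of 10 proximal tubule markers, 4 had a mean above 1 CPM, Slc5a2, Pdzk1, Cubn and Ggt1, whereas Miox had no read and Slc34a1, Slc22a6 and Hnf4a reached at most 0.0589 CPM in any sample. General epithelial markers (Cdh1, Epcam, Krt8, Krt18 and Krt19) were abundant, at a summed 7740 to 10800 CPM. At 24 h this sum was lower with TWEAK (7740 to 7880 CPM) than with vehicle (8770 to 8950 CPM) and lay between them with NIK SMI1 (8470 to 8560 CPM). At 6 h it was 9620 to 10100 CPM with TWEAK, 10200 to 10800 CPM with vehicle and 10100 to 10800 CPM with NIK SMI1, so that it also fell with time in vehicle. Its part in the changes below was not tested. Markers of the distal nephron, collecting duct, podocytes and endothelium each summed to less than 1 CPM in every library. Fibroblast markers, mostly Col1a1, summed to 9.68 to 14.2 CPM and leukocyte markers, nearly all from Cd68, to 11.1 to 14.5 CPM.

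Levels between genes are compared as RPKM, which scales reads by exonic length and library size. Mean levels over the 18 samples ran from 0.0261 to 391 RPKM, with a median of 4.85 RPKM. The 42 mitochondrial carriers (the Slc25 family) held 37.4% of the summed RPKM of the 240 genes, and the 12 highest members held 45.8%. The highest was Slc25a3, the mitochondrial phosphate carrier, at 391 RPKM, followed by Slc25a4, an ADP/ATP carrier, at 311 RPKM and by Slc4a11, a plasma membrane ion transporter, at 195 RPKM. Slc9a3r1 (NHERF1), which anchors transporters at the apical membrane, stood at 104 RPKM. Slc39a7, a zinc transporter of the endoplasmic reticulum, stood at 97.6 RPKM, although 80.7% of its exonic bases also belong to another annotated transcript. Slc3a2, the heavy chain shared by several amino acid exchangers, stood at 95.8 RPKM. The rest of the 12 were Slc25a24, Slc38a2, Slc25a39, Slc25a1, Slc25a17 and Slc25a5, between 52.6 and 82.7 RPKM. Of these 12 members only Slc9a3r1 and Slc25a24 differed by more than 0.2 on the log2 scale between TWEAK and vehicle at either time, and both were lower. At the other end 60 members had a mean below 1 RPKM.

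A fixed panel of 26 transporters of nephron segments showed how far the cells kept a kidney repertoire. Of the panel, 13 genes passed the filter and 13 did not, of which 3, the organic ion transporters Slc22a2, Slc22a8 and Slc22a12, had no read. The ubiquitous forms were the abundant ones: the phosphate carriers Slc20a1 (30.2 RPKM) and Slc20a2 (46.1 RPKM) and the glucose transporter Slc2a1 (32.3 RPKM). The renal forms of the same functions were low or missing. The sodium-phosphate cotransporter Slc34a1 had 3 reads in all 18 samples together, Slc34a3 had 17 and the glucose exit transporter Slc2a2 stood at 0.103 RPKM. Exceptions were Slc4a4, the basolateral sodium bicarbonate cotransporter, at 20.4 RPKM, the glucose cotransporter Slc5a2 at 3.09 RPKM, the cystine carrier subunit Slc3a1 at 3.74 RPKM and the neutral amino acid carrier Slc6a19 at 1.89 RPKM. Exons of Slc5a2 and Slc3a1 overlap those of other genes by 20.6% and 26.5% of their bases, and the library kit did not mark strand.

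**Figure D1:**
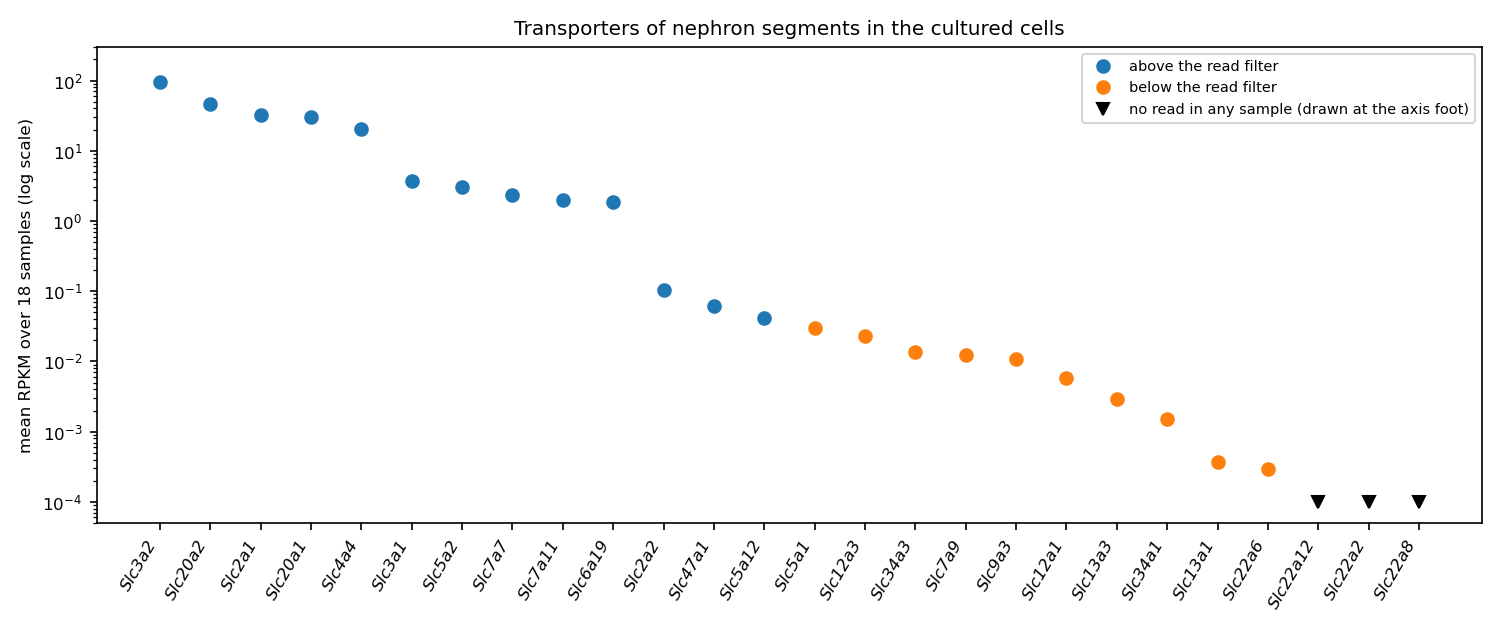
Mean RPKM over 18 samples (log axis) of a fixed panel of 26 transporters, ordered by level. The panel includes ubiquitous forms such as Slc2a1, Slc20a1 and Slc20a2, which mark no segment. Blue points passed the read filter (13 genes), orange points did not, and black triangles mark the 3 genes without a read.

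At the edge of the filter lay Slc23a3, Slc38a4, Slc5a12 and Slc6a18, each with more than 10 reads in exactly 4 samples and between 0.0409 and 0.0839 RPKM. Just outside were Slc14a1, Slc1a1, Slc4a9 and Slc8a1, with 3 such samples and between 0.00954 and 0.0581 RPKM. In all, 205 members had more than 10 reads in all 18 samples and 35 in only 4 to 17 of them. A gene of the second kind can pass mainly through the groups in which it is high, and these 35 supplied 7 of the calls of TWEAK against vehicle at 6 h and 16 at 24 h. They include Slc13a2, Slc13a2os, Slc16a9, Slc7a2, Slc23a4, Slc16a12 and Slc12a8, whose changes are given below.

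TWEAK changed many transporter genes in both directions. A call is an adjusted p below 0.05 in edgeR's quasi-likelihood test, adjusted over all 15521 genes. At 6 h, 41 members (17.1%) were higher and 47 (19.6%) lower than with vehicle, against 11.7% and 12.0% of all genes tested. At 24 h, 57 (23.8%) were higher and 67 (27.9%) lower, against 18.3% and 20.7% of all genes. The median size of the change, regardless of sign, was 0.208 on the log2 scale for the members and 0.163 for all genes at 24 h, and 0.151 and 0.112 at 6 h. With the fold cut-off of the study (above 2-fold) the counts were 7 higher and 3 lower at 6 h, against 1.75% and 0.541% of all genes, and 9 higher and 15 lower at 24 h, against 2.34% and 2.87%. Over both times, 33 members were called higher and 39 lower at both times, 4 were called in opposite directions and 104 were called at neither time. The shares of all genes with these patterns were not computed, so the counts are not read as particular to the members. Here as throughout, a lower level in such bulk samples can mean fewer expressing cells or less RNA per cell, which cannot be told apart.

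**Figure D2:**
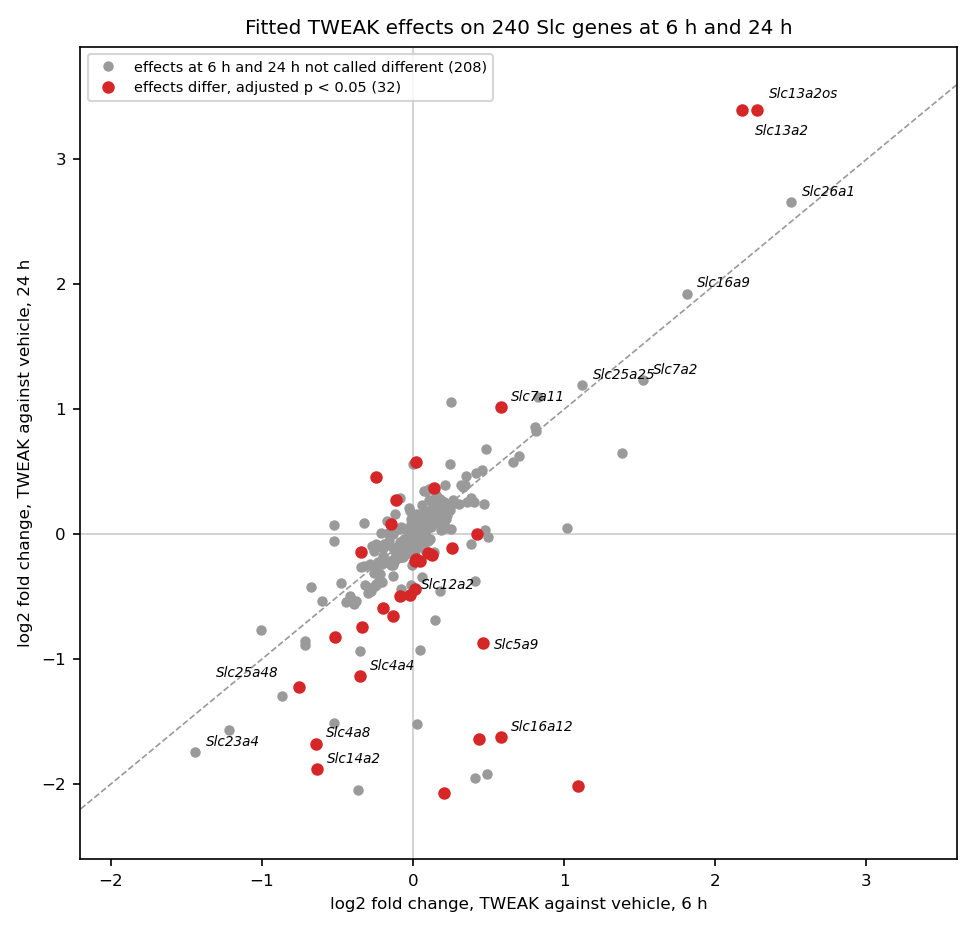
Fitted log2 fold changes of TWEAK against vehicle for the 240 members at 6 h (horizontal) and 24 h (vertical), with the line of equal effects dashed. Red points are the 32 members whose effects differed between the times, and most of them lie below the line.

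Increases are ranked here among called members with a mean of at least 1 CPM in a group and no overlap of samples. Among these, the 4 largest increases at both times were those of Slc13a2, its antisense gene Slc13a2os, Slc26a1 and Slc16a9. Slc13a2, the sodium-coupled carrier that takes up citrate and succinate at the apical membrane, lies on chromosome 11 (78397276 to 78422281 in GRCm38, minus strand). Its vehicle samples read 0.772, 0.707 and 0.565 CPM at 6 h and 0.548, 0.446 and 0.333 CPM at 24 h. With TWEAK they read 3.3, 3.12 and 2.66 CPM at 6 h and 3.97, 5.11 and 5.54 CPM at 24 h, so that every TWEAK sample was above every vehicle sample. This was an increase by 2.18 ± 0.22 on the log2 scale (SE, adjusted p = 7.79e-09) at 6 h and by 3.40 ± 0.24 (adjusted p = 4.81e-12) at 24 h, and later values with ± are log2 fold changes with their SE unless CPM is named. The increase was greater at 24 h, by 1.22 on the log2 scale (adjusted p = 0.0317). The antisense gene Slc13a2os, which starts past the end of Slc13a2 and runs toward it, moved with it, by 2.28 ± 0.19 at 6 h and 3.40 ± 0.20 at 24 h (adjusted p = 4.03e-10 and 1.76e-13). Exons of the pair share 632 bases, 26.2% of the exonic bases of Slc13a2, so that without strand their reads cannot be fully told apart.

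Slc26a1, the basolateral exchanger of sulfate, oxalate and bicarbonate, lies on chromosome 5 (108669878 to 108678380 in GRCm38). Its samples read 7.05, 5.95 and 6.55 CPM with vehicle and 38, 34.5 and 38.1 CPM with TWEAK at 6 h. At 24 h they read 6.78, 7.83 and 6.9 CPM with vehicle and 43.7, 45 and 45.5 CPM with TWEAK. The groups stood far apart at both times, and the gene rose by 2.5 ± 0.065 (adjusted p = 6.12e-21) at 6 h and by 2.66 ± 0.068 (adjusted p = 2.11e-21) at 24 h. The partly overlapping gene Idua was not called in either comparison. Slc16a9, a monocarboxylate transporter family member that carries carnitine and creatine, was low throughout. It read 0.369, 0.38 and 0.37 CPM with vehicle and 1.18, 1.06 and 1.75 CPM with TWEAK at 6 h, and rose by 1.81 ± 0.27 at 6 h and 1.93 ± 0.27 at 24 h (adjusted p = 8.28e-06 and 1.23e-06).

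The sequences upstream of these 4 genes are shown because they had the largest called increases among the members ranked. The NF-κB family is the known end point of TWEAK signaling. Each run is the 250 bases before an annotated start, 5′ to 3′ on the strand of the gene, from RefSeq (GRCm38.p6). Capitals mark a match, on either strand, to the 10-base NF-κB consensus. For Slc26a1 the runs before 2 annotated starts are shown. Both starts lie inside the span of the gene, and the bases before its outer end (108678380) were not searched.

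Slc13a2 (chr11:78422235-78422484, minus): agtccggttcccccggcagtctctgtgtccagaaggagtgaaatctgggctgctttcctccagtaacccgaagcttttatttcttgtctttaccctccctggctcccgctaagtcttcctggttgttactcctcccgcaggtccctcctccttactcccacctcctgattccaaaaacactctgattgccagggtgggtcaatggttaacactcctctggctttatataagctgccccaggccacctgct
Slc13a2os (chr11:78394235-78394484, plus): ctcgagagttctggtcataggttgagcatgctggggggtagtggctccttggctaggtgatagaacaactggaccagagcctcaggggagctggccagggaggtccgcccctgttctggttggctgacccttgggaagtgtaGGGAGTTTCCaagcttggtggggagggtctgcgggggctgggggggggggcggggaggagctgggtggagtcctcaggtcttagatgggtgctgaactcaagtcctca
Slc26a1 (chr5:108674797-108675046, minus): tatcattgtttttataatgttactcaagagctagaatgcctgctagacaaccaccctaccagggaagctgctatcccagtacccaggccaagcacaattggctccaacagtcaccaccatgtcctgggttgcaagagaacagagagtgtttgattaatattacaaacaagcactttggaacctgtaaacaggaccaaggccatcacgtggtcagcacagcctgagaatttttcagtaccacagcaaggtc
Slc26a1 (chr5:108675366-108675615, minus): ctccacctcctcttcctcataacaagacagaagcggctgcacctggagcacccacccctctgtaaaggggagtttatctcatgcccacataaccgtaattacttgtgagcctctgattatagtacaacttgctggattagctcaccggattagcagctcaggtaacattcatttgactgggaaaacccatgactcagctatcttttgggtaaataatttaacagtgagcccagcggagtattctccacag
Slc16a9 (chr10:70245026-70245275, plus): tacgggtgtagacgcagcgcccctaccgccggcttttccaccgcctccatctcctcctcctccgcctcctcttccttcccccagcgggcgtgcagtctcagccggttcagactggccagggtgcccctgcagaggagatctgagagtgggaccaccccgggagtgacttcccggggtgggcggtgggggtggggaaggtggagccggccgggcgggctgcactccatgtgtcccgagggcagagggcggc

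Among the runs shown, only that of Slc13a2os held a match, which begins 108 bases before its start. Over windows of 300 bases (250 before to 50 after the start), 8.46% of all 32817 windows held 1 or more matches. Counted by gene, 9.55% of all 26994 genes with a window held a match in any of their windows, and so did 20 of the 181 members with a window (11%). Among members higher with TWEAK the numbers were 4 of 28 at 6 h and 2 of 38 at 24 h, and among those lower at 24 h 7 of 55. A match is a run of letters and not a binding site, and its absence from these windows says nothing about sites elsewhere.

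**Figure D3:**
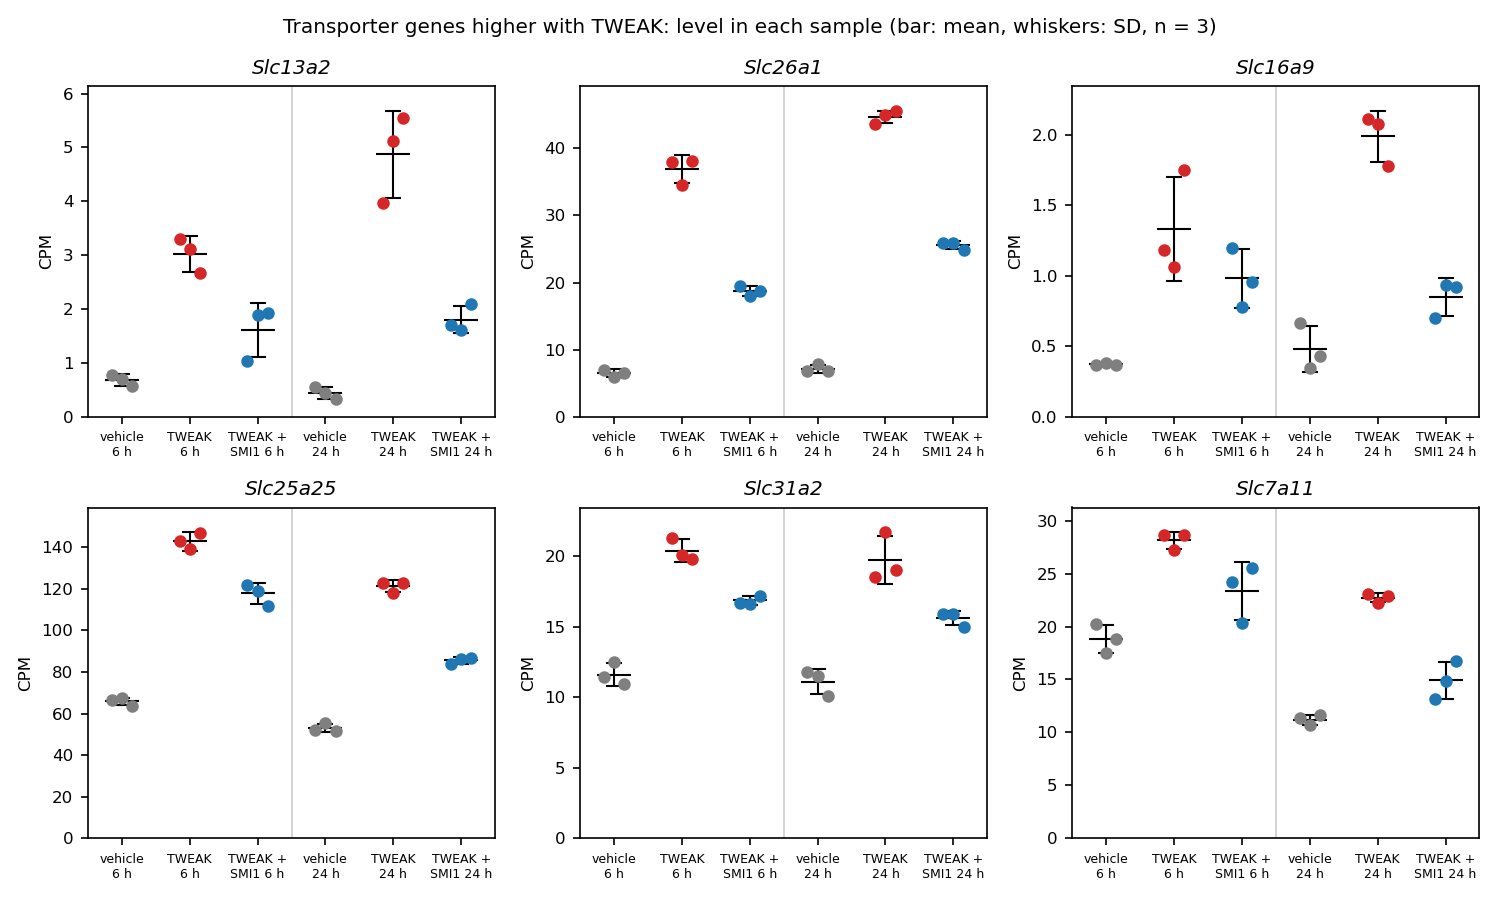
CPM of 6 genes in each of the 18 samples (points), with the mean and SD of the 3 samples of a group, from an axis that starts at 0. In all 6 genes the TWEAK samples (red) lie above the vehicle samples (grey) at both times, and the samples with NIK SMI1 (blue) lie between them at 24 h.

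Genes of the inorganic ion class moved in both directions: 7 of 36 were higher and 9 lower with TWEAK at 6 h, and 11 higher and 11 lower at 24 h. The counts of this class and of each class below stand against the shares of all genes tested. Those were 11.7% higher and 12.0% lower at 6 h, and 18.3% higher and 20.7% lower at 24 h. Slc4a4, which returns bicarbonate to the blood in the proximal tubule, fell. It read 244, 205 and 225 CPM with vehicle and 178, 178 and 171 CPM with TWEAK at 6 h. At 24 h it read 195, 192 and 190 CPM with vehicle and 84.3, 86.2 and 91.6 CPM with TWEAK. It fell by 0.35 ± 0.046 (adjusted p = 9.21e-07) at 6 h and by 1.13 ± 0.049 (adjusted p = 1.44e-16) at 24 h, and the extra fall at 24 h, 0.78 ± 0.067, had the smallest adjusted p of any member for a difference between times (3.68e-09). Slc12a2, the sodium-potassium-chloride cotransporter NKCC1, read 324, 325 and 323 CPM with vehicle and 235, 225 and 235 CPM with TWEAK at 24 h. It was not called at 6 h (-0.02 ± 0.044, adjusted p = 0.844) and it fell by 0.49 ± 0.045 at 24 h (adjusted p = 8.66e-10). Slc4a8, another sodium-coupled bicarbonate transporter, was far lower in level, with 4.54, 3.87 and 4.71 CPM with vehicle and 1.25, 1.25 and 1.59 CPM with TWEAK at 24 h. It fell by 0.64 ± 0.19 at 6 h and by 1.68 ± 0.19 at 24 h (adjusted p = 0.0123 and 5.84e-08). Slc12a8 fell by 1.51 ± 0.25 at 24 h (adjusted p = 1.67e-05) from 1.72 ± 0.265 to 0.586 ± 0.183 CPM (SD, n = 3). The phosphate carriers of the panel, Slc20a1 and Slc20a2, moved little: Slc20a2 rose by 0.37 ± 0.036 at 24 h (adjusted p = 3.54e-09), and Slc20a1 fell by 0.14 at 6 h and rose by 0.08 at 24 h (adjusted p = 0.000723 and 0.0418). Slc9a3r1 fell by 0.25 ± 0.037 at 6 h and by 0.40 ± 0.038 at 24 h (adjusted p = 9.7e-06 and 1.73e-09).

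**Figure D4:**
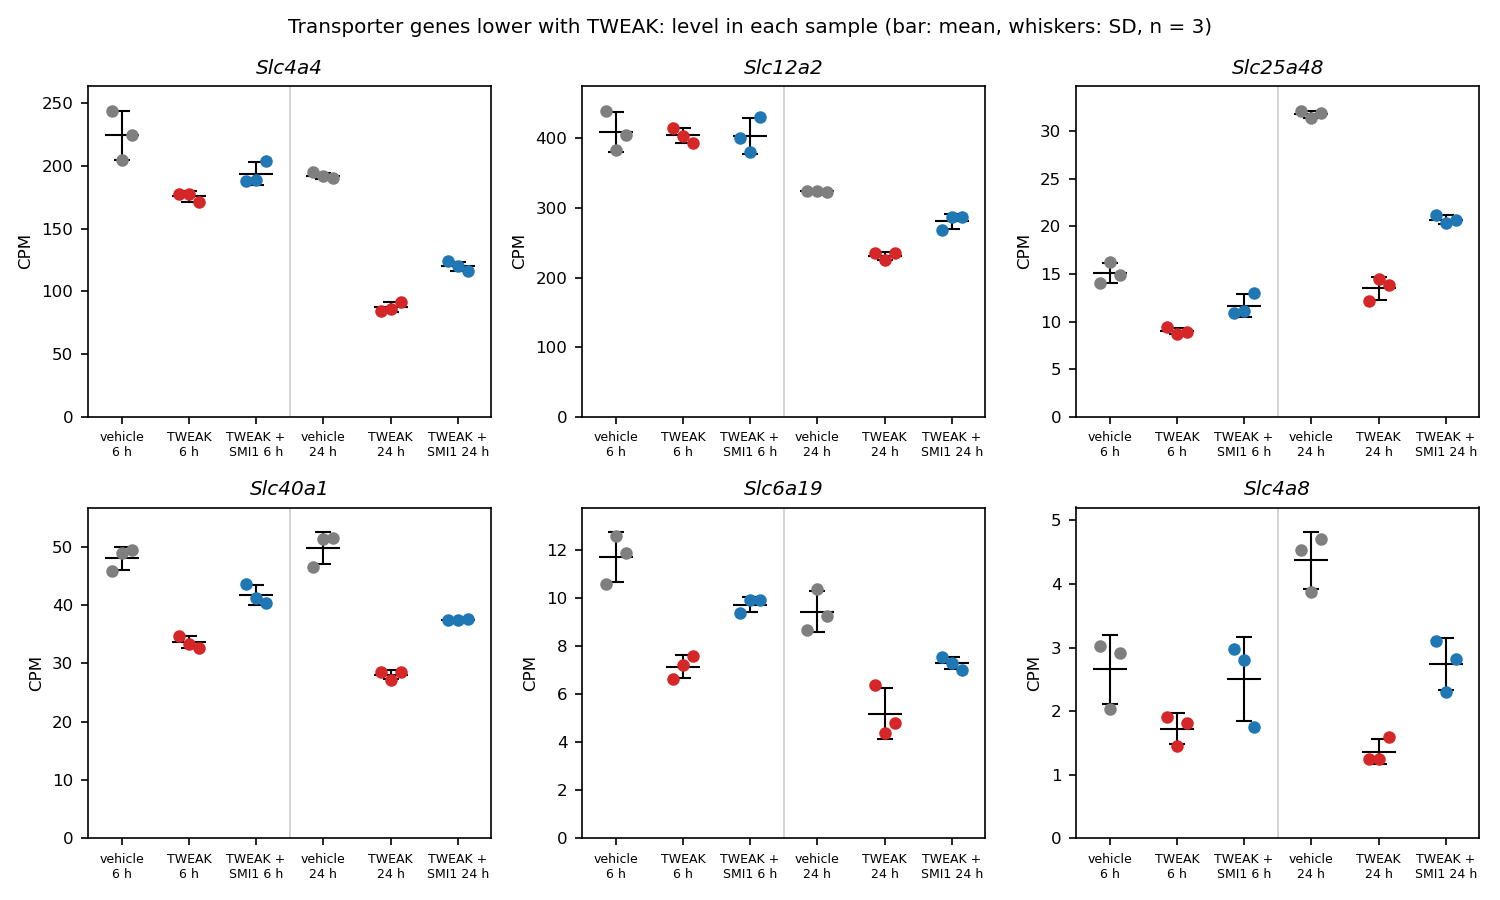
CPM of 6 genes in each of the 18 samples (points), with the mean and SD of the 3 samples of a group, from an axis that starts at 0. All TWEAK samples (red) lie below all vehicle samples (grey) at 24 h, and the samples with NIK SMI1 (blue) lie between them.

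Among the 34 genes of the amino acid class, 11 were higher and 6 lower with TWEAK at 6 h, and 12 higher and 10 lower at 24 h. Slc7a11, the light chain of the cystine/glutamate exchanger that supplies cystine for glutathione, read 20.2, 17.5 and 18.8 CPM with vehicle and 28.6, 27.2 and 28.6 CPM with TWEAK at 6 h. At 24 h it read 11.4, 10.7 and 11.6 CPM with vehicle and 23.1, 22.2 and 22.9 CPM with TWEAK. It rose by 0.58 ± 0.073 at 6 h and by 1.02 ± 0.084 at 24 h (adjusted p = 5.1e-07 and 1.14e-10), and the effects differed (0.43 ± 0.11, adjusted p = 0.012). Its heavy chain Slc3a2 rose by 0.18 ± 0.033 at 24 h (adjusted p = 4.72e-05) and was not called at 6 h. Slc7a2, a carrier of arginine and other cationic amino acids, rose by 1.52 ± 0.32 at 6 h and 1.23 ± 0.35 at 24 h (adjusted p = 0.000624 and 0.00613), at levels of 0.41 to 1.23 CPM on average. Slc6a19, the apical carrier of neutral amino acids, fell. It read 10.6, 12.6 and 11.9 CPM with vehicle and 6.63, 7.21 and 7.59 CPM with TWEAK at 6 h, a fall by 0.72 ± 0.098 (adjusted p = 1.75e-06), and it fell by 0.89 ± 0.11 at 24 h (adjusted p = 2.35e-07). The basolateral exchanger Slc7a7 was not called at 6 h (-0.13 ± 0.082) and fell by 0.65 ± 0.087 at 24 h (adjusted p = 7.38e-07), and the effects differed (adjusted p = 0.00433). Slc6a8, the creatine transporter, changed sign. It read 107, 110 and 109 CPM with vehicle and 100, 99.7 and 102 CPM with TWEAK at 6 h, and 106, 110 and 104 CPM with vehicle and 127, 131 and 128 CPM with TWEAK at 24 h. The change was -0.11 ± 0.032 at 6 h and 0.28 ± 0.032 at 24 h (adjusted p = 0.0102 and 6.88e-08).

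Of the 42 mitochondrial carriers, 6 were higher and 9 lower at 6 h, and 10 higher and 9 lower at 24 h. Slc25a25, a calcium-regulated carrier of ATP-Mg and phosphate, read 66.4, 67.4 and 63.8 CPM with vehicle and 143, 139 and 147 CPM with TWEAK at 6 h. It rose by 1.12 ± 0.039 at 6 h and by 1.20 ± 0.041 at 24 h (adjusted p = 2.67e-18 and 1.06e-18). Its close relative Slc25a24 fell by 0.12 at 6 h and 0.22 at 24 h (adjusted p = 0.0295 and 0.000108). Slc25a48, a carrier linked to mitochondrial choline, read 32.1, 31.4 and 31.9 CPM with vehicle and 12.2, 14.5 and 13.8 CPM with TWEAK at 24 h. It fell by 0.75 ± 0.074 at 6 h and by 1.22 ± 0.069 at 24 h (adjusted p = 5.99e-09 and 4.26e-14). Scarce carriers also fell: Slc25a21, which carries oxodicarboxylates, by 1.0 ± 0.26 at 6 h (adjusted p = 0.00494) and Slc25a35, whose substrate is not settled, by 0.86 ± 0.18 at 6 h and 1.30 ± 0.18 at 24 h (adjusted p = 0.000502 and 2e-06). Exons of Slc25a35 share 31.3% of their bases with Rangrf, a scarce gene (0.3635 CPM on average) that also fell, by 1.12 at 24 h. The abundant housekeeping carriers of phosphate and citrate, Slc25a3 and Slc25a1, were not called at either time, with log2 fold changes between -0.07 and 0.04.

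Of 28 metal transporters, 4 were higher and 2 lower at 6 h, and 8 higher and 6 lower at 24 h. Slc40a1, ferroportin, the only known iron exporter of cells, read 45.8, 49 and 49.4 CPM with vehicle and 34.7, 33.4 and 32.7 CPM with TWEAK at 6 h. At 24 h it read 46.6, 51.3 and 51.5 CPM with vehicle and 28.5, 27.2 and 28.5 CPM with TWEAK. It fell by 0.52 ± 0.047 and by 0.82 ± 0.050 (adjusted p = 1.29e-09 and 1.68e-13), more at 24 h than at 6 h (adjusted p = 0.00378). Slc31a2, a protein of copper handling, rose by 0.82 ± 0.070 and 0.83 ± 0.075 (adjusted p = 5.02e-10 and 6.88e-10), from 11.4, 12.5 and 10.9 CPM to 21.3, 20.1 and 19.8 CPM at 6 h.

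In the mixed class of lipid precursor, vesicle and other transporters, 3 of 20 were higher and 8 lower at 6 h and 2 higher and 8 lower at 24 h, where 11.7% and 12.0% of all genes were called at 6 h and 18.3% and 20.7% at 24 h. Its median log2 fold change was -0.15 at both times, against -0.0034 and -0.0055 over all genes tested. Slc14a2, a urea transporter, read 1.83, 2.18 and 1.85 CPM with vehicle and 0.69, 0.395 and 0.561 CPM with TWEAK at 24 h. It fell by 0.64 ± 0.20 at 6 h and by 1.88 ± 0.24 at 24 h (adjusted p = 0.0211 and 4.96e-07). Slc44a1, a choline transporter, changed sign, from 0.12 ± 0.035 at 6 h to -0.16 ± 0.036 at 24 h (adjusted p = 0.00951 and 0.000643).

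Of 38 nucleoside, nucleotide sugar and vitamin transporters, 3 were higher and 7 lower at 6 h, and 7 higher and 12 lower at 24 h. Slc29a4, a transporter of monoamines and adenosine, read 15.5, 16.7 and 16 CPM with vehicle and 24.9, 24.6 and 22.4 CPM with TWEAK at 24 h. It rose by 0.58 ± 0.067 (adjusted p = 5.31e-08) at 24 h and was not called at 6 h, and the effects differed (adjusted p = 0.000141). Slc23a4, a nucleobase transporter, fell by 1.44 ± 0.35 at 6 h and by 1.74 ± 0.37 at 24 h (adjusted p = 0.00265 and 0.000372) from about 1 CPM, 0.972 ± 0.291 CPM with vehicle at 6 h (SD, n = 3).

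Among the 25 genes of the class of organic ions, carboxylates and peptides, which includes Slc13a2, Slc13a2os and Slc16a9, 5 were higher and 4 lower at 6 h, and 6 higher and 7 lower at 24 h. Slc16a12, which carries creatine, fell by 1.62 ± 0.34 at 24 h (adjusted p = 0.00033) and had a value of 0.58 ± 0.28 at 6 h that was not called. Slc22a15 read 10.7, 9.97 and 9.18 CPM with vehicle and 14.8, 16 and 15.9 CPM with TWEAK at 6 h and rose by 0.66 ± 0.084 (adjusted p = 5.43e-07). Its relative Slc22a4, the ergothioneine transporter, fell by 0.44 ± 0.10 at 6 h and by 0.54 ± 0.11 at 24 h (adjusted p = 0.00171 and 0.000187).

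The sugar class, set like the others by family number, held 17 genes, 1 of them a pseudogene, which need not all carry sugars. Of these, 2 were higher and 2 lower at 6 h, and 1 was higher and 4 lower at 24 h. Slc2a1, the main glucose transporter of these cells, read 101, 106 and 103 CPM with vehicle and 104, 102 and 103 CPM with TWEAK at 6 h, and its fitted change rounded to 0 at both times (SE 0.039 at 6 h and 0.042 at 24 h). Slc5a2, the glucose cotransporter of the early proximal tubule, was not called either (0.23 ± 0.098 at 6 h and 0.16 ± 0.10 at 24 h). Slc5a9, a mannose cotransporter, changed sign, from 0.47 ± 0.17 at 6 h (adjusted p = 0.0406) to -0.87 ± 0.19 at 24 h (adjusted p = 0.000459). Slc5a10, another carrier of mannose and fructose, rose by 0.83 ± 0.086 and 1.10 ± 0.094 (adjusted p = 1.73e-08 and 2.33e-10). However, 16.6% of its exonic bases are shared with Fam83g on the opposite strand, a far more abundant gene (77.9 CPM on average) that rose by nearly the same amounts, 0.81 and 1.04, and without strand the reads of the shared bases cannot be told apart.

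**Figure D5:**
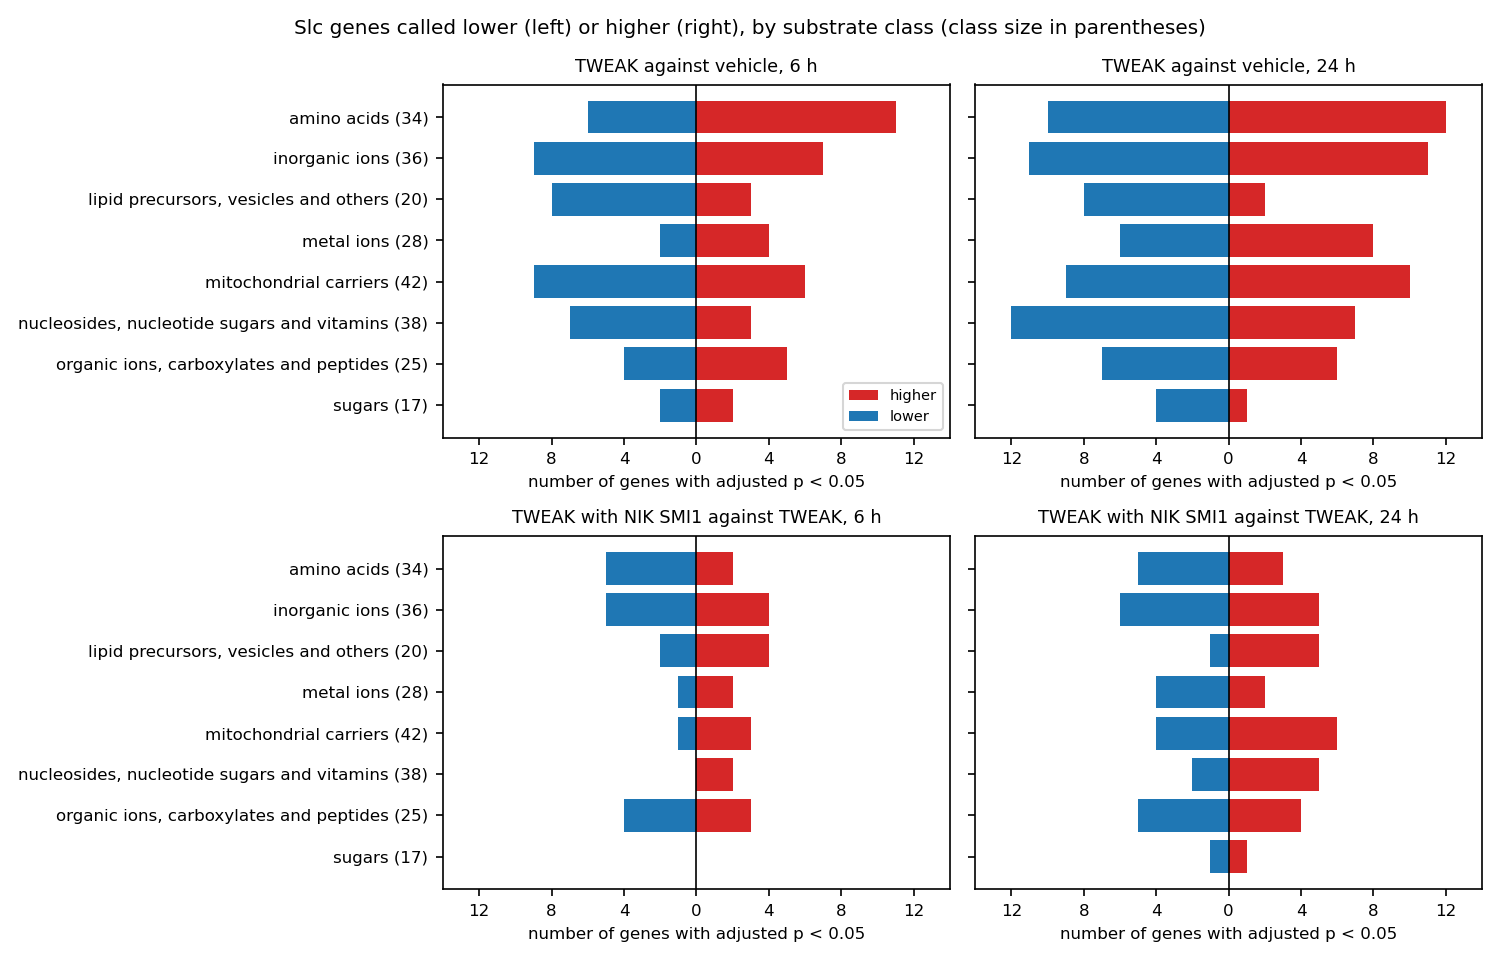
Number of members called lower (blue, to the left) and higher (red, to the right) in 8 classes, with class sizes in parentheses. Classes are named for substrates but set by family number. Shown are TWEAK against vehicle and TWEAK with NIK SMI1 against TWEAK. At 24 h every class had calls in both directions in both comparisons.

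The effect of NIK inhibition was read as TWEAK with NIK SMI1 against TWEAK. These comparisons share the TWEAK samples with those against vehicle, so that the values are only set side by side. At 6 h, 20 members (8.33%) were higher and 18 (7.5%) lower with the inhibitor, against 5.34% and 5.7% of all genes tested. At 24 h, 31 (12.9%) were higher and 28 (11.7%) lower, against 10.2% and 8.29%. Above the study's cut-off of 1.5-fold, 0 were higher and 6 lower at 6 h, against 0.296% and 1.1% of all genes, and 6 higher and 7 lower at 24 h, against 1.51% and 1.75%. At 6 h edgeR placed 3 members above that cut-off at an unadjusted p below 0.05 (Slc23a4, Slc35g2 and Slc4a8), and DESeq2 called 2. No islet gene was read in any of the 3 inhibitor samples at 24 h, and when only the 4 libraries without such reads were kept, a fit of 1 TWEAK sample against 3 inhibitor samples, the 24 h counts were 21 higher and 21 lower.

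Slc13a2, Slc13a2os and Slc26a1 were lower with the inhibitor than with TWEAK at both times, and at 24 h still above vehicle. Slc13a2 read 1.03, 1.89 and 1.92 CPM with TWEAK and NIK SMI1 at 6 h and 1.7, 1.62 and 2.09 CPM at 24 h, below every TWEAK sample and above every vehicle sample. Lying apart from the TWEAK samples was a condition of being named here. Slc13a2 fell by 0.97 ± 0.20 at 6 h and by 1.46 ± 0.18 at 24 h against TWEAK (adjusted p = 0.00159 and 5.07e-07). Slc13a2os fell by 0.94 ± 0.18 and 1.41 ± 0.15 (adjusted p = 0.000558 and 6.87e-08). Slc26a1 read 19.5, 18 and 18.7 CPM at 6 h and 25.9, 25.9 and 24.9 CPM at 24 h. It fell by 0.97 ± 0.060 at 6 h and by 0.81 ± 0.055 at 24 h (adjusted p = 4.77e-12 and 1.34e-11), which left it well above the 7.17 ± 0.578 CPM of vehicle at 24 h (SD, n = 3).

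Slc25a25 fell by 0.28 ± 0.038 and 0.50 ± 0.038 (adjusted p = 8.37e-06 and 1.22e-10), to 83.8, 86.1 and 86.7 CPM at 24 h. Slc7a11 fell by 0.27 ± 0.075 and 0.61 ± 0.077 (adjusted p = 0.0175 and 9.04e-07). Both genes stayed above their vehicle samples at 24 h. Slc16a9 was not called at 6 h (-0.40 ± 0.25) and fell by 1.23 ± 0.23 at 24 h (adjusted p = 0.000237). Slc7a2 read 1.21, 0.81 and 1.15 CPM with TWEAK and 0.0655, 0.198 and 0.127 CPM with the inhibitor at 24 h. Against TWEAK it fell by 3.01 ± 0.42 (adjusted p = 3.91e-06). The inhibitor samples read below the 0.548, 0.397 and 0.285 CPM of vehicle, but these groups were not tested against each other. The levels rest on few reads, as Slc7a2 had more than 10 in only 12 of the 18 samples. Its call at 6 h (a fall by 1.0 ± 0.33, adjusted p = 0.0454) was lost when any sample of either group other than replicate 1 of the inhibitor group was left out, with adjusted p up to 0.18. Slc16a12 fell by 1.03 ± 0.33 at 6 h (adjusted p = 0.0393), a call lost without any 1 of the 6 samples (adjusted p from 0.0639 to 0.156). Slc22a15 fell by 0.34 ± 0.086 at 6 h (adjusted p = 0.0095), a call lost without replicate 1 of the inhibitor group (adjusted p = 0.0824).

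Genes that TWEAK lowered were in several cases higher with the inhibitor. Slc4a4 read 124, 120 and 116 CPM at 24 h, between the TWEAK and the vehicle samples, and rose by 0.46 ± 0.049 against TWEAK (adjusted p = 5.21e-08). At 6 h its value of 0.14 ± 0.047 was not called. Slc12a2 rose by 0.28 ± 0.044 at 24 h (adjusted p = 3.03e-05). Slc40a1 read 43.7, 41.2 and 40.4 CPM at 6 h and 37.4, 37.5 and 37.7 CPM at 24 h. It rose by 0.32 ± 0.049 and 0.42 ± 0.049 (adjusted p = 3.89e-05 and 2.63e-07). Slc25a48 rose by 0.36 ± 0.081 at 6 h and by 0.60 ± 0.069 at 24 h (adjusted p = 0.00318 and 1.9e-07), to 21.2, 20.3 and 20.7 CPM at 24 h. Slc6a19 rose by 0.44 ± 0.10 and 0.54 ± 0.11 (adjusted p = 0.00537 and 0.000651). Slc4a8 rose by 1.0 ± 0.20 at 24 h (adjusted p = 0.000429), from 1.36 ± 0.197 to 2.74 ± 0.407 CPM (SD, n = 3). In contrast Slc14a2, Slc23a4 and Slc25a35, which TWEAK lowered by 1.30 or more at 24 h, were not called with the inhibitor at either time, with values at 24 h of 0.42 ± 0.27, 1.0 ± 0.38 and 0.48 ± 0.19.

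Several calls for the inhibitor were lost when 1 sample was left out. Their direction could hardly change, as these members were named only without overlap of samples. Slc41a3, a magnesium transporter, rose by 0.47 ± 0.14 at 6 h (adjusted p = 0.0297), a call lost without replicate 1 or 2 of TWEAK or replicate 2 or 3 of the inhibitor group (values from 0.36 to 0.47, adjusted p from 0.0879 to 0.173). Slc22a4 rose by 0.34 ± 0.11 at 6 h (adjusted p = 0.0425), which was lost without replicate 1 or 2 of TWEAK or replicate 1 or 3 of the inhibitor group (values from 0.26 to 0.34, adjusted p from 0.112 to 0.227). At 24 h Slc12a8 rose by 0.96 ± 0.25 (adjusted p = 0.00703), lost without replicate 2 of the inhibitor group (0.79, adjusted p = 0.0549). Slc5a9 rose by 0.71 ± 0.18 (adjusted p = 0.00518), lost without replicate 1 of that group (0.55, adjusted p = 0.058). Slc25a21 rose by 0.86 ± 0.28 (adjusted p = 0.0294), lost without any 1 of the 6 samples other than replicate 3 of TWEAK (values from 0.58 to 0.89, adjusted p from 0.0563 to 0.217). Slc39a4, a zinc importer, was not called with TWEAK at either time and fell with the inhibitor at 24 h, from 2.63, 2.91 and 2.78 CPM to 1.79, 1.53 and 1.65 CPM (by 0.75 ± 0.14, adjusted p = 0.00023).

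The effect of time in culture was read in vehicle alone. Between vehicle at 24 h and vehicle at 6 h, 33 members (13.8%) were higher and 42 (17.5%) lower, against 15.5% and 14.4% of all genes tested, and the median size of the change was 0.129 on the log2 scale for the members and 0.134 for all genes. Of the members named for time, Slc39a4 fell most, by 1.43 ± 0.13 (adjusted p = 1.16e-09), from 5.8, 5.76 and 6.18 CPM to 2.08, 1.88 and 2.71 CPM. Slc9a2, a sodium/proton exchanger, fell by 0.78 ± 0.11 (adjusted p = 1.64e-06) and Slc7a11 by 0.74 ± 0.085 (adjusted p = 1.05e-07). Slc2a1, not called with TWEAK, fell by 0.43 ± 0.041 (adjusted p = 4.28e-09), from 101, 106 and 103 CPM to 76.3, 76.5 and 77.5 CPM. Slc25a48 rose most, by 1.07 ± 0.068 (adjusted p = 1.28e-12), from 14.1, 16.3 and 14.9 CPM to 32.1, 31.4 and 31.9 CPM. With TWEAK the same gene read 9.4, 8.72 and 8.88 CPM at 6 h and 12.2, 14.5 and 13.8 CPM at 24 h. Slc7a4 rose by 0.76 ± 0.10, Slc4a8 by 0.72 ± 0.17, Slc16a10, a carrier of aromatic amino acids, by 0.70 ± 0.12, Slc35g1 by 0.67 ± 0.069 and Slc43a2, a carrier of neutral amino acids, by 0.54 ± 0.078 (adjusted p at most 0.00219). The scarce genes Slc15a2 (0.80 ± 0.25, adjusted p = 0.017), Slc25a41 (0.77 ± 0.27, adjusted p = 0.0319) and Slc12a8 (0.60 ± 0.23, adjusted p = 0.0446) were called higher but lost the call without single samples. For Slc15a2 these were replicate 1 at 6 h or at 24 h (adjusted p = 0.0645 and 0.112). For Slc25a41 they were replicate 3 at 6 h and replicates 2 and 3 at 24 h (adjusted p from 0.0791 to 0.23), and for Slc12a8 all samples but replicate 2 at 24 h (adjusted p from 0.0513 to 0.234).

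The TWEAK effect differed between 6 h and 24 h in 32 members. In 9 (3.75%) it was more positive at 24 h and in 23 (9.58%) more negative, against 3.24% and 5.67% of all genes tested. The 6 with the smallest adjusted p were Slc4a4, Slc6a8, Slc12a2, Slc29a4, Slc44a1 and Slc5a9. In Slc5a9, Slc44a1, Slc6a8 and Slc20a1 the effect was called at both times with opposite signs.

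Genes that work with Slc proteins or belong to the same families under other names were taken from 3 lists. Of 12 organic anion transporters of the Slco family, 4 passed the filter. Of these, Slco2a1, Slco3a1 and Slco5a1 were higher with TWEAK at both times and lower with the inhibitor at both times. Among all genes tested, 11.7% at 6 h and 18.3% at 24 h were higher with TWEAK. With the inhibitor 5.7% and 8.29% were lower. The share of all genes with the joint pattern was not computed, so it is not read as particular to the family. Slco3a1 rose by 1.19 ± 0.037 at 6 h and fell by 0.77 ± 0.037 with the inhibitor (adjusted p = 2.45e-19 and 4.73e-14). Slco4a1 was not called at 6 h and fell by 1.06 ± 0.18 with TWEAK at 24 h (adjusted p = 1.74e-05). Of 10 chaperones, partners and scaffolds, 7 passed the filter, of which 1 was higher and 2 lower at 6 h and 1 higher and 4 lower at 24 h. Of all genes tested, 11.7% were higher and 12.0% lower at 6 h and 18.3% and 20.7% at 24 h. That list includes the members Slc9a3r1 and Slc9a3r2. Its largest change was in Pdzk1ip1, a small membrane protein of the proximal tubule, which fell by 1.42 ± 0.10 at 24 h (adjusted p = 4.79e-12), rose by 0.84 ± 0.10 with the inhibitor (adjusted p = 4.73e-07) and had a value of -0.15 ± 0.091 at 6 h that was not called. Of 16 further transporters with other symbols, 14 passed the filter, and of these 1 was higher and 2 lower at 6 h and 3 higher and 2 lower at 24 h.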

How the data were processed

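Gene expression was measured by RNASeq (TruSeq RNA v2 libraries, which do not keep strand) in 18 samples. The authors ran HTSeqGenie, which aligns with GSNAP, on NCBI build 37 of the mouse genome. They deposited raw counts of uniquely placed exonic reads per gene, and these counts were used for every test. In the same files the authors gave RPKM values and the exonic width of each gene; the deposited RPKM values served only for levels between genes. Submitters' processing notes name DESeq2. The labels and the study's methods differ on the read length and the sequencer, so neither is given here.

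Of 36528 genes, 31049 (85.0%) were matched by Entrez identifier to a current symbol in RefSeq (GRCm38.p6). Positions and promoters are of GRCm38 and were not converted. Exon overlaps were counted in GENCODE M21, which held 236 of the members. Each gene with more than 10 reads in at least 4 samples was tested (15521 genes). A single model with 6 groups covered all 18 samples (edgeR 4.0.16 under R 4.3.3, TMM, quasi-likelihood test), with Benjamini-Hochberg adjustment over all genes. The common biological coefficient of variation was 0.0404. CPM values are scaled by TMM. Standard errors were derived from the F statistic. The script was tested on simulated data. Alternatives were DESeq2 1.42.0, its size factors in edgeR, no filter, filterByExpr, each time point alone, the study's fold cut-offs, leaving out each sample, and leaving out libraries with insulin reads. The filterByExpr setting served for the counts of called members and not for the values of named members. DESeq2 was not used for the difference between times.

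For each group comparison the 12 members with the largest change were named, if called, with a mean of at least 1 CPM in a group and without overlap of samples. A member that this rule also picked is not reported here. The interaction names 6, the levels 12, and a fixed panel and the members at the filter's edge are also named. Members named in the account of related lists or because their calls had opposite signs were chosen after their values were seen. The members, lists and classes were chosen with earlier results of these data known.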

Additional observations from a re-analysis of the deposited data

Results flagged for a closer look

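Of 58 members named by a comparison, by level or by the panel, 17 had a TWEAK effect that differed between 6 h and 24 h. The test was the interaction test of edgeR (adjusted p below 0.05). Slc4a4, Slc6a8, Slc12a2, Slc29a4, Slc44a1 and Slc5a9 were named by this same test, so the count is partly built in. Of all genes tested, 3.24% had a more positive and 5.67% a more negative effect at 24 h. The values below are the effect at 24 h minus the effect at 6 h on the log2 scale. It was more positive at 24 h in Slc13a2 (1.22), Slc13a2os (1.12), Slc29a4 (0.56), Slc7a11 (0.43), Slc6a8 (0.39), Slc20a1 (0.23) and Slc20a2 (0.23). It was more negative in Slc16a12 (-2.21), Slc5a9 (-1.33), Slc14a2 (-1.24), Slc4a8 (-1.03), Slc4a4 (-0.78), Slc7a7 (-0.53), Slc12a2 (-0.47), Slc25a48 (-0.47), Slc40a1 (-0.30) and Slc44a1 (-0.29). Exons of Slc13a2 and Slc13a2os overlap, and Slc16a12 stood near 1 CPM or below in every group.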

How the results depend on the processing

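Of 280 alternative counts of called members, 268 stayed within 1.5 times the count in the report. With the study's fold cut-offs the counts were 7 higher and 3 lower for TWEAK at 6 h, 9 and 15 at 24 h, 0 and 6 for NIK SMI1 at 6 h, and 6 and 7 at 24 h, by construction fewer. The 20 members higher with NIK SMI1 at 6 h ranged from 12 (without replicate 1 of TWEAK at 6 h) to 23 when 1 sample was left out, and the 9 with a more positive effect at 24 h from 5 (without replicate 2 of TWEAK at 24 h, of vehicle at 24 h or of vehicle at 6 h) to 10. The cause was not tested. Of 684 alternative values of named members, 639 kept direction and call, 45 lost the call and 0 changed sign. For the group comparisons members were named only without overlap of samples, so leaving out 1 sample could hardly change the sign. The lost calls concern 11 values, all of NIK SMI1 or of time in vehicle, and those lost without 1 sample are given beside the genes. With each time point alone the calls for NIK SMI1 at 6 h of Slc7a2, Slc41a3 and Slc22a4 were lost (adjusted p = 0.0723, 0.0631 and 0.0902), and without a filter that of Slc22a4 (adjusted p = 0.0682). The call of Slc12a8 for time in vehicle was lost with DESeq2 and without a filter (adjusted p = 0.0815 and 0.0704). Leaving out libraries with insulin reads gave values for NIK SMI1 at 24 h only, since each other comparison loses a whole group. That fit sets 1 TWEAK sample against 3, the lone sample assumed to vary like the others. The values of Slc12a8 and Slc5a9 (0.93 and 0.74) were close to those of the report (0.96 and 0.71), while their calls were lost with the fewer samples (adjusted p = 0.119 and 0.0646). No paired analysis was possible because the labels give no replicate numbers, and those used here pair nothing. Genes near 1 CPM rest on few reads, and their changes have the wider standard errors.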
